A study of Mus musculus with 36 samples.

Results

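Epiblast-like cells (EpiLCs) of 2 wild-type (WT) sets from separate submissions were compared, and 6 of the 36 RNA-seq libraries of the series hold them. The Pcgf-set WT group has 3 libraries titled WT, deposited with the libraries of cells that lack PCGF2 and PCGF4. The J2WT group has 3 libraries of the WT cells used as control for the Jarid2-null cells, J2KO. All 6 libraries carry the strain label C57BL/6 and come from mouse embryonic stem cells (ESCs) that were kept in serum, LIF and 2i and then moved for 2 days to fibronectin and a serum-free medium with 20 ng/ml activin A, 12 ng/ml bFGF and 1% Knockout Serum Replacement. No group carries a transgene or a deletion in the labels, and no treatment was given. Neither the labels nor the methods of the study name the ESC line behind the Pcgf-set WT libraries, and whether the libraries of each group represent independent cultures is not given. The p-values therefore cover only library-to-library spread, part of which may be technical. The question was how similar 2 sets of control cells are when they were made at the same stage but submitted apart. Of 50957 autosomal genes in the annotation, 12795 had a mean normalized count of at least 15 over the 6 libraries and were tested, and 38162 did not.

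EpiLCs model the epiblast of the embryo just after implantation. ESCs in 2i represent the naive state, held by factors such as Nanog, Esrrb, Klf4 and Prdm14. Activin and FGF signals take them to a formative state in which these factors fall, while Fgf5, Otx2, Pou3f1 and the de novo DNA methyltransferases Dnmt3a and Dnmt3b rise and Pou5f1 persists. Polycomb repressive complex 2 (PRC2) and complex 1 (PRC1) keep developmental genes silent in both states.

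The 2 groups carried the same EpiLC markers. Levels are CPM, a gene's share of the reads counted in genes, scaled by TMM over all 36 libraries, and errors are SD over 3 libraries. Fgf5, a ligand that marks the EpiLC state, was at 45.9, 44.5 and 41.6 CPM in Pcgf-set WT and at 59.0, 58.7 and 57.1 CPM in J2WT, against 0.0645 ± 0.112 CPM in J2WT ESCs. Otx2, a transcription factor of the formative state, was at 157, 163 and 156 CPM in Pcgf-set WT and at 112, 116 and 122 CPM in J2WT. These libraries did not overlap for either gene, and Fgf5 was the lower and Otx2 the higher in Pcgf-set WT, by −0.40 ± 0.05 and 0.45 ± 0.04 on the log2 scale (estimate ± SE, edgeR's quasi-likelihood test with Benjamini-Hochberg adjustment, adjusted p = 1.68e-08 and 2.48e-13). Dnmt3b was at 2180 ± 15.5 CPM in Pcgf-set WT and 2213 ± 31.2 CPM in J2WT, and its 95% interval ran from −0.07 to 0.04 on the log2 scale.

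The naive factors Klf4 and Prdm14 were low in each set, while Nanog and Zfp42 kept clear levels, given with their list. The 16 listed naive genes summed to 1266 to 1307 CPM in Pcgf-set WT and 1163 to 1207 CPM in J2WT. Klf4 was at 4.94 ± 0.224 CPM in Pcgf-set WT and 4.89 ± 0.88 CPM in J2WT, against 376 ± 2.67 CPM in J2WT ESCs. Prdm14 was below the count minimum, at 0.664 ± 0.406 CPM in Pcgf-set WT, 0.97 ± 0.28 CPM in J2WT and 48.1 ± 0.984 CPM in J2WT ESCs. The remaining WT set, PclWT, belongs to the mutants of Polycomb-like proteins and was labelled with the same culture. In its EpiLC libraries Fgf5 was at 0.766, 0.921 and 1.00 CPM and Otx2 at 3.50, 3.58 and 3.10 CPM, far below their levels in either of the other sets.

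Markers of other cell types ranged from 0 to clear levels in the 6 libraries. Of the 14 genes of 2-cell-like cells none reached the count minimum, and their summed level was 0.484 to 1.11 CPM in Pcgf-set WT and 0.575 to 1.28 CPM in J2WT. Elf5 and Lum, markers of trophoblast and fibroblasts, were at 0 in all Pcgf-set WT libraries and at 0.0409 and 0.0203 CPM on average in J2WT. Gata4, a defining factor of primitive endoderm, was at 0.542 ± 0.0527 CPM in Pcgf-set WT and 1.51 ± 0.0988 CPM in J2WT. Other members of these lists were above the count minimum, such as Gata6 at 5.95 and Cubn at 13 CPM in J2WT and Pdgfrb at 6.21 CPM in Pcgf-set WT, and are given with their lists.

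Counts in genes were 10452715 to 11146921 in the Pcgf-set WT libraries and 16535475 to 17154437 in the J2WT libraries, so J2WT was the more deeply sequenced. Mitochondrial genes took 1.82% to 2.069% of counts in Pcgf-set WT and 1.027% to 1.284% in J2WT. Depth and the mitochondrial share moved with the group, as did the submission, and with the line these cannot be told apart. The labels state single-end reads for the Pcgf-set libraries and no read length or layout for the J2WT libraries, so whether these were read alike is not known. In bulk RNA, fewer cells of a type and less RNA per cell cannot be told apart either. Replicate libraries were tight, with a biological coefficient of variation of 3.01% within Pcgf-set WT and 2.45% within J2WT, and it was 25.6% within PclWT EpiLCs and 2.75% between PclWT replicates 2 and 3, since replicate 1 stood apart.

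Most of the autosomal transcriptome lay within 2-fold between the sets. The 95% interval of the fold change was inside 2-fold for 11575 of 12795 genes (90.5%), and the median absolute log2 difference was 0.20. A gene was called where its adjusted p was under 0.05 and it differed by more than 2-fold, and 373 were called (2.92%), 196 higher (1.53%) and 177 lower (1.38%) in Pcgf-set WT. Which direction held more calls depended on the fit, with 162 higher and 210 lower when all 21 EpiLC libraries were fitted, 198 and 227 without Pcgf-set WT replicate 1, 200 and 227 without replicate 2, 209 and 212 without replicate 3, and 219 and 162 with offsets for GC content and length. The remaining 847 genes were neither called nor shown to lie within 2-fold. Small differences were widespread, as 7012 genes (54.8%) had an adjusted p under 0.05 at any size, 3159 of them higher (24.7%) and 3853 lower (30.1%). Fold changes past 4-fold were seen for 15 called genes, 3 of them higher and 12 lower in Pcgf-set WT. No autosomal gene was silent in one set, with at most 3 counts over its 3 libraries, and at 5 CPM or more in the other.

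The calls sat near the 2-fold limit. A test against a 2-fold change (glmTreat in edgeR) called 52 genes, 22 higher and 30 lower, while removing the count minimum gave 917.

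Pairs of single libraries gave the same order. Over the 12795 genes, 4 to 6 were more than 2-fold apart between J2WT libraries and 23 to 24 between Pcgf-set WT libraries. Between a Pcgf-set WT and a J2WT library it was 269 to 367 genes (median 321), above every pair within either of these sets. Between PclWT EpiLC libraries it was 35 genes for replicates 2 and 3, and 1401 and 1615 for the pairs with replicate 1. A PclWT EpiLC library differed from a J2WT library at 2510 to 3627 genes and from a Pcgf-set WT library at 2426 to 3655 genes.

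**Figure D1:**
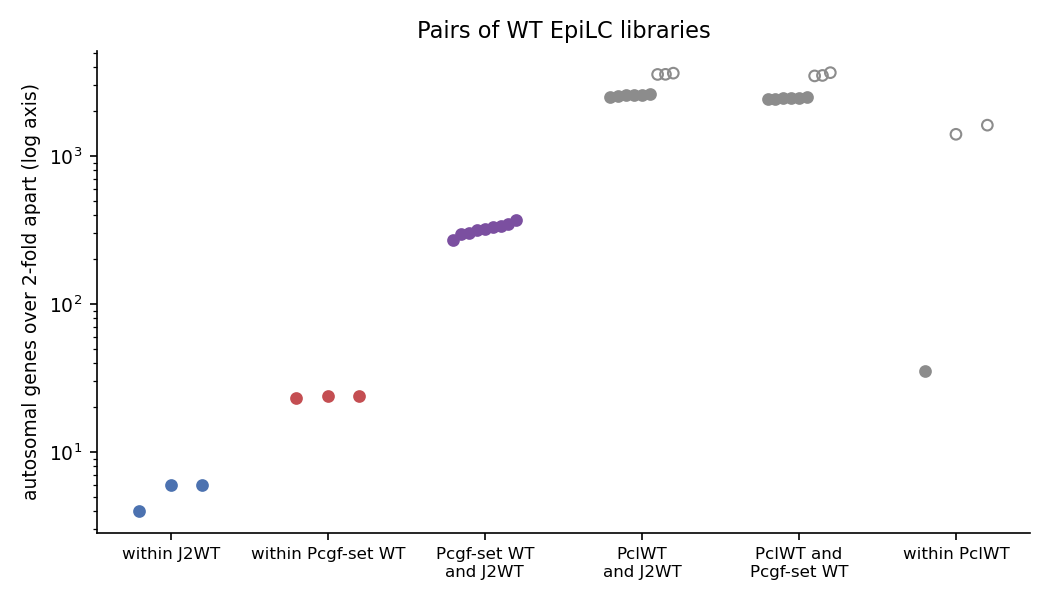
Each point is 1 pair of WT EpiLC libraries and gives, on a log axis, the number of autosomal genes more than 2-fold apart in CPM; columns group the pairs by set, the sideways position has no meaning, and open circles hold PclWT replicate 1. Pairs of Pcgf-set WT and J2WT (269 to 367 genes) lie above pairs within either of these sets. They lie below all pairs of either set with PclWT (2426 genes or more). Pairs within PclWT hold 35, 1401 and 1615 genes, the last 2 with replicate 1.

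The same call rule placed the difference among others in the series. Between PclWT EpiLCs and J2WT EpiLCs 2944 of 12967 autosomal genes (22.7%) were called, and between PclWT and Pcgf-set WT EpiLCs 2615 of 12482 (21%). Without PclWT replicate 1 these counts were 3076 and 2664. J2KO EpiLCs differed from their own J2WT control at 1152 of 13244 genes (8.70%), and Pcgf2/4 KO EpiLCs from Pcgf-set WT at 692 of 12263 (5.64%). The 373 genes between the WT sets were fewer than each of these, though these comparisons share libraries with it and no test of the difference between counts was made.

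**Figure D2:**
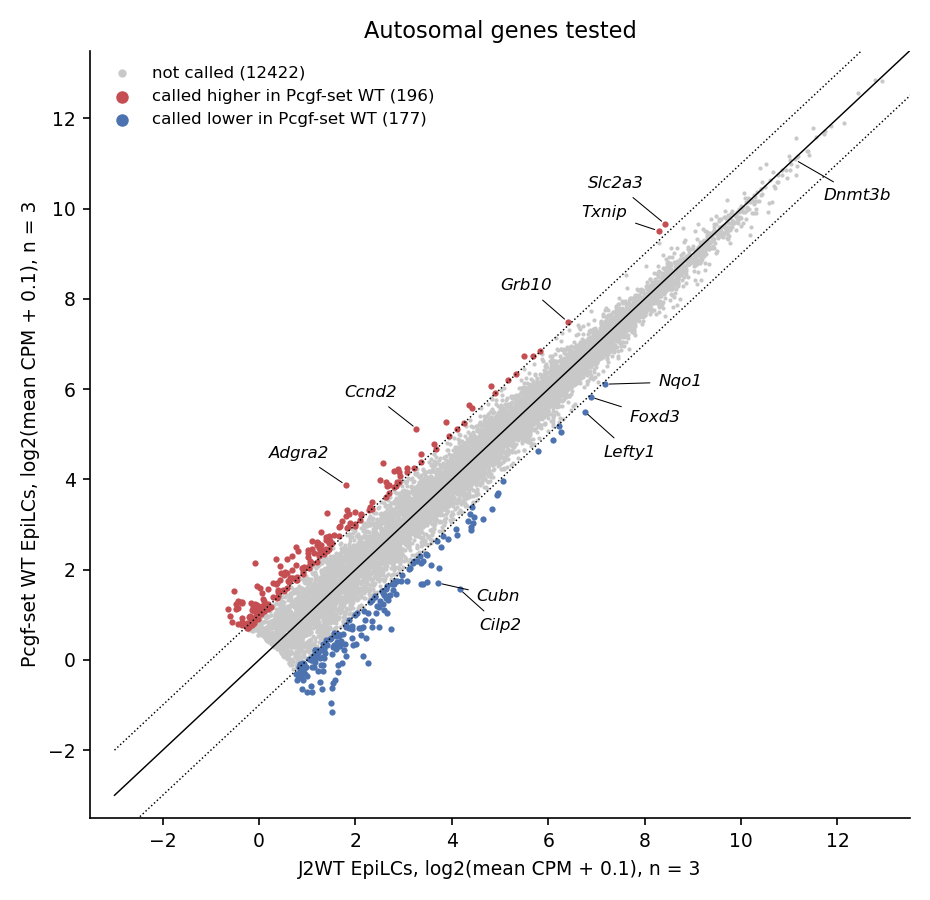
Each point is 1 of the 12795 autosomal genes tested, placed by its mean level (log2 of CPM plus 0.1, n = 3) in J2WT on the x axis and in Pcgf-set WT on the y axis, with the line of equal levels and dotted lines at 2-fold. The 196 genes called higher (red) and 177 called lower (blue) lie mostly at low levels, with Slc2a3, Txnip and Grb10 above and Nqo1, Foxd3 and Lefty1 below at higher ones.

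Called genes were mostly weakly expressed. Of the 2559 genes in the lowest of 5 equal bins by mean CPM (1.13 to 4.57 CPM) 257 were called (10%), and of the 2559 in the highest bin (96.7 to 7516 CPM) 4 were (0.156%). Protein-coding genes were 76% of those called higher, 76.8% of those called lower and 92.2% of all tested. Pseudogenes were 25 of the 196 called higher (12.8%) and 11 of the 177 called lower (6.21%), against 3.08% of genes tested. Reads of a pseudogene and its parent gene can be split by the alignment, so the levels of these genes are uncertain. Long noncoding genes were 10.2% of those called higher and 16.9% of those called lower, against 4.52% of all tested. GC content did not separate the called genes, with medians of 49.7%, 49.6% and 49.9% for higher, lower and all.

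Promoters of the genes called lower held few CG dinucleotides, the sites of DNA methylation and the unit of CpG islands. Promoter windows (300 bases, 250 before to 50 after the start, RefSeq, GRCm38.p6) were matched by symbol to 103 of 177 genes called lower, 111 of 196 called higher and 9615 of 12795 tested. The median was 8 CG in genes called lower, 16 in those called higher and 21 in all tested. At most 10 CG were held by 61.2%, 32.4% and 18.1% of these windows, and by 58.1% of all 27025 RefSeq windows. Weakly expressed genes hold fewer CG in general, and within the lowest of the 5 bins by CPM the shares were 62.3% of those called lower, 41.8% of those called higher and 40.5% of all tested. The window with the fewest and that with the most CG among the 30 genes with the largest differences (20 had a window) show the range. That of Bcl2l15 (chr3:103832446-103832745, + strand), a gene called lower, has 0 CG, and that of Hsf5 (chr11:87616914-87617213, + strand), called higher, has 34, with each CG in capitals.
Bcl2l15: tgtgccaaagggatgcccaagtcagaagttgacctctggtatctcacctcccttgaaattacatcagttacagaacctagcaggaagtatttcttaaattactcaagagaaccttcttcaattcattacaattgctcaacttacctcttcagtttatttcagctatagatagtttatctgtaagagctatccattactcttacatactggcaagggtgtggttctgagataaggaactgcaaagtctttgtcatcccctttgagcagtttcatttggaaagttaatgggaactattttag
Hsf5: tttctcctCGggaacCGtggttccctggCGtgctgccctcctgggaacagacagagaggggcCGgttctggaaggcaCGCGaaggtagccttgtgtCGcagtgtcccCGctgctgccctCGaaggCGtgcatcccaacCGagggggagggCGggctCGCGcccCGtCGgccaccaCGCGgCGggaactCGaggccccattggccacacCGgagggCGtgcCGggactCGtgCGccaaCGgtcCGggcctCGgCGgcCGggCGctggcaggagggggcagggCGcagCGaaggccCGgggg

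The genes with the largest differences on the higher side in Pcgf-set WT included a receptor, a cyclin and a chromatin-binding protein. Adgra2, an adhesion G protein-coupled receptor that acts in Wnt7 signalling (chromosome 8, 27085583 to 27123436, GRCm38), was at 15.5, 13.7 and 14.6 CPM in Pcgf-set WT and at 2.80, 3.68 and 3.64 CPM in J2WT. The lowest Pcgf-set WT library lay above the highest J2WT library, and the fold was 4.35 (log2 2.12 ± 0.13, adjusted p = 8.15e-18). Ccnd2, which encodes cyclin D2 and drives entry into the cell cycle (chromosome 6, 127125162 to 127152193), was at 35.2, 33.2 and 36.0 CPM against 8.65, 9.20 and 10.7 CPM, 3.68-fold higher (log2 1.88 ± 0.08, adjusted p = 2.28e-22). In J2WT ESCs Ccnd2 was at 0.0847 CPM, and in PclWT EpiLCs at 15.7 CPM, between the other two WT sets. Trim66, a chromatin-binding TRIM protein (chromosome 7, 109449006 to 109508134), was at 20.4 ± 1.74 CPM against 5.85 ± 0.53 CPM, and PclWT EpiLCs at 2.42 CPM lay below both.

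Most other genes among the 15 largest on this side were weakly expressed. Tspo2, Sost, Sat2, Lrrc9, Adamts1, Aldoart1 and Klhl14 had means of 1.86 to 3.03 CPM in Pcgf-set WT, and Hsf5, Ccdc60, Atp12a and Eno2 means of 4.11 to 5.21 CPM. Sost encodes the Wnt antagonist sclerostin, Adamts1 an extracellular protease, Atp12a a proton pump and Eno2 the neuronal enolase. Sost was at 2.50, 1.76 and 2.52 CPM in Pcgf-set WT and at 0.731, 0.552 and 0.575 CPM in J2WT, and it was at 0 in PclWT EpiLCs. Over these 15 genes the log2 fold change ran from 1.67 to 2.12. They were picked by gene type, name, level and separated libraries, and over all called genes the largest value was 2.36.

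The genes with the largest differences on the lower side included an extracellular matrix gene and an endocytic receptor of the visceral endoderm. Cilp2, an extracellular matrix protein (chromosome 8, 69880369 to 69887687), was at 3.24, 2.54 and 2.81 CPM in Pcgf-set WT and at 19, 18.3 and 16.2 CPM in J2WT. It was 6.17-fold higher in J2WT (log2 −2.62 ± 0.13, adjusted p = 4.58e-20), and PclWT EpiLCs at 16.0 CPM were near J2WT. Cubn, which encodes the endocytic receptor cubilin (chromosome 2, 13276338 to 13491813), was at 2.68, 2.93 and 3.87 CPM against 12.2, 14.7 and 12.0 CPM (log2 −2.03 ± 0.14, adjusted p = 2.14e-15), and PclWT EpiLCs at 0.475 CPM lay below both. Diras2, a small GTPase (chromosome 13, 52504380 to 52531279), had the largest fold of the named genes, with 0.370, 0.391 and 0.290 CPM against 2.86, 2.7 and 2.75 CPM (log2 −2.94 ± 0.33, adjusted p = 4.84e-10). That value rests on 11 counts over 3 Pcgf-set WT libraries and 134 over 3 J2WT libraries.

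The rest of this group held regulators and enzymes at low levels. Sall3, a zinc finger factor of development, was at 0.370, 0.685 and 0.581 CPM in Pcgf-set WT and at 2.74, 3.01 and 2.55 CPM in J2WT, and at 59.8 CPM in J2WT ESCs. Hes3, a repressor of the Notch pathway, was at 0.277, 0.685 and 0.581 CPM against 2.19, 2.21 and 1.72 CPM. Fbp2, an enzyme of gluconeogenesis, was at 1.39, 1.27 and 1.84 CPM against 6.95, 6.81 and 6.00 CPM. Groups did not overlap for any of these genes, which the rule that picked them required. Bcl2l15, Prss46, Dcdc2a, Sftpd, Aox3, Magel2, Tigd5, Pdgfra and Akr1c13 completed the 15, whose log2 fold changes ran from −2.94 to −1.85.

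**Figure D3:**
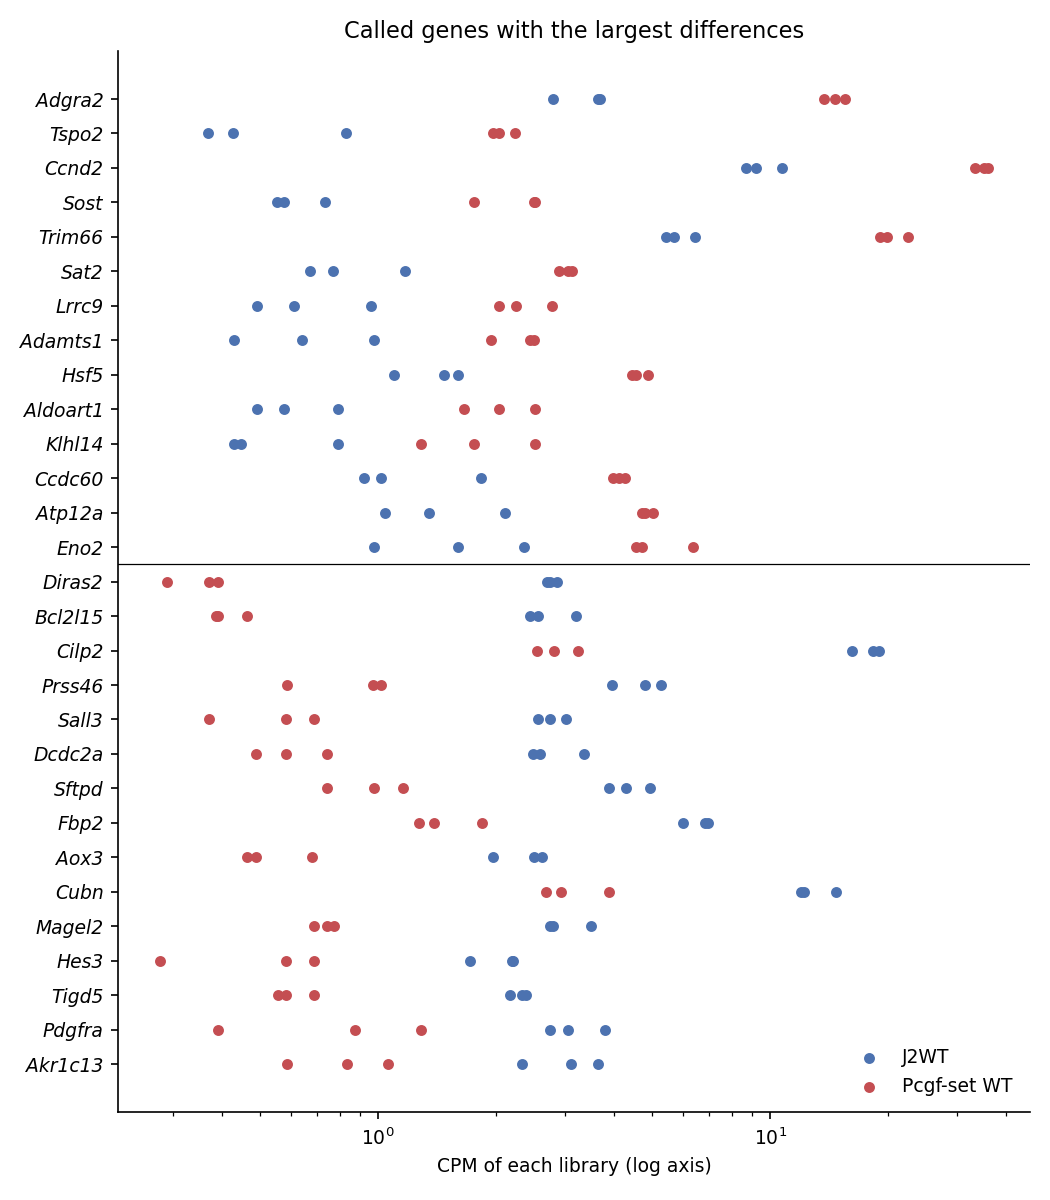
Each row is 1 of 29 called genes among those with the largest differences and each point the CPM of 1 library on a log axis, J2WT in blue and Pcgf-set WT in red (n = 3 each). The 14 genes above the line are higher and the 15 below it lower in Pcgf-set WT. The libraries of the groups do not overlap in any row because the choice of genes required it.

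Most called genes were separated in this way: for 369 of the 373 the libraries of the groups did not overlap, against 59.3% of all genes tested. Since a call needs a difference larger than the spread, this count describes the calls.

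Among the 10 called protein-coding genes with the highest level per length, 7 were higher and 3 lower in Pcgf-set WT. Slc2a3, the glucose transporter GLUT3 (chromosome 6, 122727809 to 122801640), was at 812, 812 and 810 CPM in Pcgf-set WT and at 337, 332 and 358 CPM in J2WT, 2.38-fold higher (log2 1.25 ± 0.03, adjusted p = 6.87e-31). Txnip, an arrestin that restrains glucose uptake (chromosome 3, 96557957 to 96561883), was at 704, 738 and 741 CPM against 300, 306 and 335 CPM (log2 1.22 ± 0.03, adjusted p = 5.48e-29). Grb10, an imprinted adaptor of insulin receptor signalling, was at 176, 185 and 179 CPM against 79.8, 83.6 and 90.0 CPM (log2 1.1 ± 0.04). Vegfa, Egln3 and P4ha1, a growth factor and a pair of prolyl hydroxylases known as targets of hypoxia signalling, were higher by 1.06, 1.03 and 1.24 on the log2 scale (Egln3 by 0.98 without Pcgf-set WT replicate 2 and 0.99 with all 21 EpiLC libraries), and Mael, a piRNA pathway gene, by 1.01. Lefty1, an inhibitor of Nodal, was at 47.8, 44.6 and 43.2 CPM in Pcgf-set WT and at 110, 106 and 107 CPM in J2WT (log2 −1.24 ± 0.05, adjusted p = 4.62e-24). Foxd3, a factor of the pluripotent epiblast, was at 59.4, 53.9 and 56.7 CPM against 120, 117 and 116 CPM (log2 −1.05 ± 0.04, adjusted p = 9.39e-23), but its log2 difference was −0.89 once library offsets for GC content and length were added, under 2-fold. Nqo1, a quinone reductase, was also lower (log2 −1.07).

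Pluripotency genes differed by less than 2-fold with few exceptions. Of 15 naive genes tested 0 were called, 14 lay within 2-fold and the median log2 difference was 0.23, beside −0.02 over all autosomal genes. Nanog, at 94.7, 95.7 and 105 CPM in Pcgf-set WT and 56.7, 56.9 and 63.8 CPM in J2WT, was higher by 0.74 ± 0.05 on the log2 scale, while Zfp42 at 49.3 ± 0.967 against 74.2 ± 1.61 CPM and Tbx3 at 3.88 ± 0.608 against 6.90 ± 0.599 CPM were lower. All 3 were far from their levels in J2WT ESCs, at 793, 489 and 423 CPM. Of 18 formative and primed genes 2 were called (11.1%, beside 2.92% over all genes), both lower. They were Foxd3, and Cdh2 (N-cadherin) at 3.79, 4.69 and 3.58 CPM against 9.20, 9.08 and 7.85 CPM (log2 −1.11 ± 0.14, adjusted p = 1.47e-08). Of 13 general pluripotency genes 0 were called and all 13 lay within 2-fold, with a median of −0.23. At an adjusted p under 0.05 of any size 10 of them were lower, beside 30.1% of all genes. Trim71, a post-transcriptional regulator, went from 383 ± 22.5 CPM in J2WT to 226 ± 8.03 CPM in Pcgf-set WT, and Pou5f1 was at 692 ± 19.9 CPM in Pcgf-set WT and 741 ± 9.32 CPM in J2WT.

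In the signalling pathways that act on these cells the share of genes called was 5.56% for Nodal and activin, 5.56% for FGF and ERK, 15.4% for Wnt, 9.09% for BMP and 0% for LIF, beside 2.92% over all genes, and all the calls were lower. Of 18 genes of the Nodal and activin pathway 1 was called, the inhibitor Lefty1, and 17 lay within 2-fold. Lefty2, the other Lefty inhibitor, was lower but not called (log2 −0.89 ± 0.05), and Nodal itself was at 51.9 CPM against 59.1 CPM. Of 18 genes of the FGF and ERK pathway 1 was called, the receptor Fgfr2, at 4.25, 4.60 and 4.55 CPM in Pcgf-set WT against 9.32, 9.33 and 9.07 CPM (log2 −1.04 ± 0.13, adjusted p = 9.04e-09). The main receptor Fgfr1 was at 131 and 127 CPM, and Dusp6, an ERK phosphatase, at 303 CPM against 198 CPM. At an adjusted p under 0.05 of any size 10 of the 18 genes were higher and 4 lower, beside 24.7% and 30.1% of all genes. Of 13 Wnt pathway genes 2 were called lower, the ligand Wnt8a (2.31, 2.25 and 2.23 against 5.42, 6.14 and 5.87 CPM) and the secreted inhibitor Notum (0.924, 1.08 and 1.55 against 3.90, 4.05 and 3.89 CPM). Of 11 BMP pathway and Id genes 1 was called lower, Id1, at 0.702 CPM against 1.84 CPM. None of 12 LIF and STAT3 genes was called and all 12 lay within 2-fold, with the kinase Pim1 at 211 CPM in Pcgf-set WT and 118 CPM in J2WT.

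Primitive endoderm genes were mostly lower in Pcgf-set WT. Of 12 tested 4 were called, all lower, and 9 had an adjusted p under 0.05 in that direction, beside 1.38% called lower and 30.1% lower at any size over all genes. The laminins Lamb1 (169 against 105 CPM) and Lamc1 (423 against 400 CPM) were higher. The median log2 difference was −0.86, beside −0.02 over all genes. The 4 were Cubn, the PDGF receptor Pdgfra (1.29, 0.391 and 0.871 against 3.05, 3.8 and 2.75 CPM), the basement membrane laminin Lama1 (3.98, 4.40 and 3.58 against 12.4, 14 and 13.1 CPM) and the transcription factor Gata6 (2.59, 2.74 and 2.52 against 5.73, 6.56 and 5.55 CPM). The factors Gata4, Sox17, Sox7 and Foxa2 were under the count minimum, and the summed level of the 16 listed genes was 730 to 753 CPM in Pcgf-set WT and 697 to 749 CPM in J2WT, most of it from Lamc1 and Lamb1. The part of such cells in the other results was not tested.

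Among markers of other lineages 33.3% of the trophoblast and 14.3% of the fibroblast genes tested were called, beside 2.92% over all genes, from lists of few tested genes. Of 6 trophoblast genes tested Krt7, a simple epithelial keratin, was called higher (log2 1.17 ± 0.20) and Hand1, a mesoderm and trophoblast factor, lower (log2 −1.13 ± 0.27). The Hand1 difference was under 2-fold without J2WT replicate 3 (log2 −0.99) or Pcgf-set WT replicate 1 (log2 −0.97). Of 7 fibroblast genes tested Pdgfrb was called higher, at 6.19, 5.87 and 6.58 CPM against 2.86, 1.90 and 2.81 CPM, while Col1a1, Col3a1, Postn and Lum were under the count minimum. Of 3 primitive streak and mesendoderm genes tested 1 was called lower (33.3%, beside 2.92% over all genes), and 14 were under the count minimum. Of 7 mesenchymal genes tested 1 was called lower (14.3%), 6 were below and 1 above 0, and the median log2 difference was −0.38. None of 6 neuroectoderm and 14 epithelial genes tested was called, and Cdh1, the epithelial cadherin, was at 804 CPM in Pcgf-set WT and 711 CPM in J2WT.

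Glycolysis and hypoxia genes were higher together in Pcgf-set WT. All 23 had a log2 difference above 0, 21 of them at an adjusted p under 0.05 (24.7% of all genes were higher at any size), and the median was 0.49 beside −0.02 over all genes. The 3 called (13%, beside 2.92% over all genes) were Slc2a3, Vegfa and Egln3, and 18 lay within 2-fold. Ldha, lactate dehydrogenase A, was at 1920, 1884 and 1931 CPM in Pcgf-set WT and 1378, 1334 and 1323 CPM in J2WT (log2 0.51 ± 0.03), and Slc2a1, the glucose transporter GLUT1, at 756 ± 12.6 against 445 ± 23.2 CPM. Gapdh, often used as a reference gene, was at 1385 ± 61.4 and 1362 ± 24.2 CPM, with a 95% interval from −0.03 to 0.09. The summed level of the list was 16974 to 17331 CPM in Pcgf-set WT and 12610 to 12828 CPM in J2WT, with no overlap.

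Transcripts of integrated stress response genes were also mostly higher. This response lifts translation of ATF4 when nutrients or protein folding fail, and translation was not measured. Of 19 genes 3 were called higher, 15 were higher at an adjusted p under 0.05 and 0 were lower, with a median of 0.34, beside 1.53% called higher and 24.7% higher at any size over all genes. Atf3 (14.8, 13.4 and 15.2 against 5.79, 6.01 and 7.41 CPM) and Ddit3 (26.2, 27.7 and 28.4 against 10.5, 11.7 and 14.7 CPM), transcription factors of the response, and the lipoprotein receptor Vldlr (37.8 against 19 CPM) were called, while Atf4 was at 552 and 545 CPM. The Vldlr difference was under 2-fold (log2 0.95 to 0.97) with all 21 EpiLC libraries, with GC and length offsets, and without J2WT replicate 1, J2WT replicate 2 or Pcgf-set WT replicate 2.

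Cholesterol synthesis genes were lower. Of 22 tested 0 were called and all 22 lay within 2-fold, yet 20 were lower at an adjusted p under 0.05 (30.1% over all genes) and 0 higher, with a median of −0.43. The summed level was 3819 to 3918 CPM against 5034 to 5126 CPM.

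Heat shock genes were lower too, 10 of 11 at an adjusted p under 0.05 (30.1% over all genes), with a median of −0.46 and 0 called. Hspa8, the constitutive HSP70, was at 698, 661 and 691 CPM in Pcgf-set WT and 1169, 1147 and 1169 CPM in J2WT, and Hsph1 and Hspb1 were lower as well (log2 −0.79 and −0.84). Ccnd2 was the only called gene of 19 in the cell cycle list (5.26%, beside 2.92% over all genes), and 0 of 19 p53 genes were called.

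**Figure D4:**
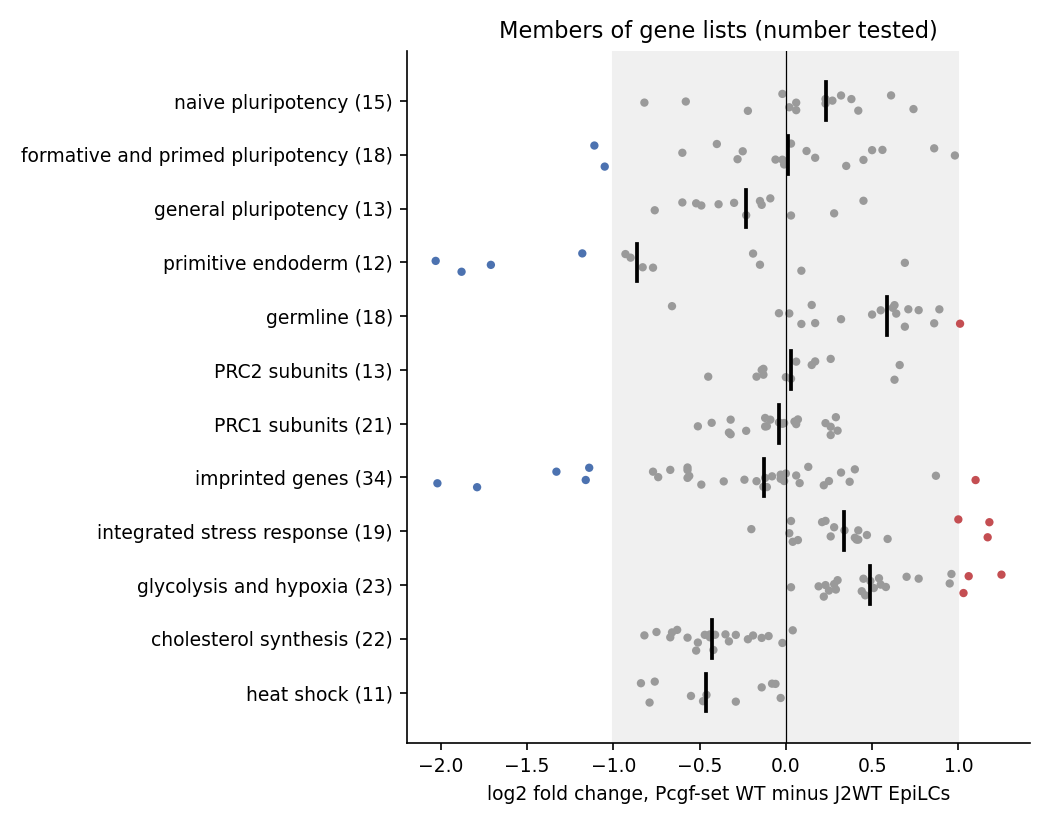
Each point is 1 tested gene of a list, placed by its log2 fold change (Pcgf-set WT minus J2WT EpiLCs), with called genes in red (higher) or blue (lower), the list median as a black bar and the range within 2-fold shaded. Glycolysis and integrated stress response genes lie mostly to the right of 0, and cholesterol synthesis, heat shock and primitive endoderm genes mostly to the left.

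The Polycomb machinery that the series studies was close between the sets. None of 13 PRC2 genes and none of 21 PRC1 genes was called, and all 13 and all 21 lay within 2-fold. Their median log2 differences were 0.03 and −0.04. Jarid2, the PRC2.2 subunit missing in J2KO, was at 688, 714 and 693 CPM in Pcgf-set WT and 767, 774 and 766 CPM in J2WT, a small but separated difference (log2 −0.13 ± 0.03, adjusted p = 0.000125). Pcgf2, missing in the Pcgf2/4 KO, was at 59.4, 55.5 and 62.0 CPM against 53.4, 58.9 and 59.4 CPM (log2 0.05 ± 0.05, adjusted p = 0.409), and these libraries overlapped. Epop, a PRC2.1 subunit, was at 155 CPM against 212 CPM, and Ezh2, the methyltransferase, at 256 CPM in each set. Among 13 DNA methylation genes 0 were called, with Dnmt3a higher (1176 ± 9.88 against 838 ± 5.81 CPM) and its cofactor Dnmt3l lower (435 against 644 CPM) in Pcgf-set WT.

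Polycomb targets were grouped by sites where SUZ12 was recruited or displaced from ESCs to EpiLCs. The study chose these sites on J2WT and PclWT cells, so they are not independent of the J2WT libraries. Of 299 autosomal genes tested with a start within 2000 bp of a recruited site 18 were called lower and 3 higher in Pcgf-set WT (7.02% called, beside 2.92% over all genes), with a median log2 difference of −0.01. A further 205 genes at these sites were under the count minimum. Neither this list nor the others were matched to all genes by level, and weakly expressed genes were called more often. The 4 with the largest differences were Sall3, Pdgfra, Notum and Adgrg6, an adhesion receptor at 3.05, 3.72 and 2.90 CPM against 10.7, 11.5 and 11.2 CPM. Of 77 genes tested at displaced sites 0 were called, 75 lay within 2-fold and the median was 0.01. Dnmt3b and Epcam, an epithelial adhesion molecule at 364, 354 and 364 CPM against 312, 306 and 314 CPM, were those with the highest levels per length.

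Imprinted genes held 6 calls among 34 tested (17.6%, beside 2.92% over all genes), 5 of them lower (1.38% over all genes). Magel2 was at 0.740, 0.685 and 0.774 CPM in Pcgf-set WT and 2.80, 3.50 and 2.75 CPM in J2WT, and Peg13 at 1.11, 1.17 and 1.65 against 4.81, 4.36 and 4.47 CPM. Rtl1 (log2 −1.33 ± 0.16), the noncoding Kcnq1ot1 (−1.16 ± 0.13) and the noncoding H19 (−1.14 ± 0.06) were the other lower genes, and Grb10 the only higher. Kcnq1ot1 was under 2-fold without J2WT replicate 2 (log2 −0.95) or Pcgf-set WT replicate 2 (log2 −0.98). The median over the list was −0.13, and the noncoding Meg3 and Rian of the Dlk1 domain were at 376 and 467 CPM in Pcgf-set WT and 407 and 495 CPM in J2WT. The counts keep no allele, so a change of imprinting cannot be read from them.

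Germline genes were mostly higher, 13 of 18 at an adjusted p under 0.05 (24.7% over all genes) and 1 lower, with a median of 0.58 and 1 call (5.56%, beside 2.92%), Mael, at 79.4, 78.4 and 83.5 CPM against 38.9, 39.1 and 42.6 CPM (log2 1.01 ± 0.05). Without J2WT replicate 1, J2WT replicate 2 or Pcgf-set WT replicate 3 the Mael difference was at or under 2-fold. The summed level of the 20 listed genes was 788 to 796 CPM in Pcgf-set WT and 591 to 604 CPM in J2WT.

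The step from ESC to EpiLC was taken from PclWT, whose libraries are in neither set. PclWT EpiLCs differed from PclWT ESCs at 1857 of 12285 autosomal genes (15.1%), 1050 higher and 807 lower. Of the 973 higher genes that were tested between the WT sets, 49 were called higher and 12 lower in Pcgf-set WT, with a median of 0.14. That is 6.27% called, beside 2.92% over all genes (1.53% higher and 1.38% lower). Of the 618 lower genes tested, 14 were called higher and 31 lower (7.28% called, beside the same 2.92%), with a median of −0.06. The lists were not matched to all genes by level, and weakly expressed genes were called more often. Without PclWT EpiLC replicate 1 the counts were 51 and 13 of 1065 (6.01% called) and 15 and 35 of 653 (7.66% called). Since PclWT EpiLCs carried little Fgf5 and Otx2, these lists describe the step in that line.

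The mutants of the same 2 sets gave a comparison with no library in common. Pcgf2/4 KO and J2KO EpiLCs differ in genotype as well as in set, and 2145 of 12842 autosomal genes (16.7%) were called between them. Some chromosomes were also shifted between these mutants. The median log2 difference was −0.570 on chromosome 11, −0.200 on chromosome 14, 0.233 on chromosome 3 and 0.185 on chromosome 15. The part of these shifts in the shared directions below was not tested. Of the 373 genes called between the WT sets 322 were tested there, and 241 (74.8%) had the same direction, against 66.7% of the genes not called. For 160 genes (49.7%) the same direction was also called, and for 31 the opposite one. Of the 142 genes lower in Pcgf-set WT 120 were lower in the Pcgf2/4 KO, with a median of −1.42, and of the 180 higher genes 121 were higher, with a median of 0.64. Cilp2 (−2.78), Magel2 (−5.76), Lefty1 (−2.31), Slc2a3 (1.04), Txnip (1.84) and Ccnd2 (2.44) kept their direction on the log2 scale. All 23 glycolysis and hypoxia genes were again above 0, with a median of 0.69. The integrated stress response had the same median of 0.34, but with 13 genes above and 6 below 0, against 18 and 1 between the WT sets. Other lists were closer to 0 there, with medians of −0.18 for cholesterol synthesis (8 of 22 genes above 0), −0.16 for heat shock (4 of 11 above 0) and 0.19 for germline genes, and interferon and MHC class I genes were at −0.65 (4 above and 13 below 0) against 0.24 between the WT sets. The primitive endoderm genes were not lower in the Pcgf2/4 KO, where 9 of 13 were above 0, Gata6 by 4.04 and Cubn by 3.50, and Grb10 was at −0.81.

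PclWT EpiLCs lay nearer to Pcgf-set WT for most genes called lower and were more evenly placed for those called higher. Of the 196 genes called higher in Pcgf-set WT PclWT was nearer to Pcgf-set WT on the log scale for 106 and nearer to J2WT for 90. Of the 177 called lower it was nearer to Pcgf-set WT for 114 and to J2WT for 63, and below both sets for 87. Without PclWT replicate 1 the counts nearer to Pcgf-set WT were 101 and 114.

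No autosome was shifted as a whole between the WT sets. The median log2 difference per autosome ran from −0.053 on chromosome 11 to 0.023 on chromosome 3, and 1.66% (chromosome 12) to 4.31% (chromosome 3) of the genes tested were called. Chromosome 11 was at −0.570 between Pcgf2/4 KO and J2KO, at 0.505 between J2KO and J2WT and at −0.001 between Pcgf2/4 KO and Pcgf-set WT. PclWT was also higher there, by 0.412 over J2WT (0.379 without PclWT replicate 1). Chromosome 14 was at −0.200 between Pcgf2/4 KO and J2KO and at 0.239 between J2KO and J2WT. In overlapping windows of 40 neighbouring tested genes, the median between the WT sets ran from −0.326 on chromosome 4 (145213463 to 147904704, GRCm38) to 0.212 on chromosome 9 (58006411 to 64138118).

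**Figure D5:**
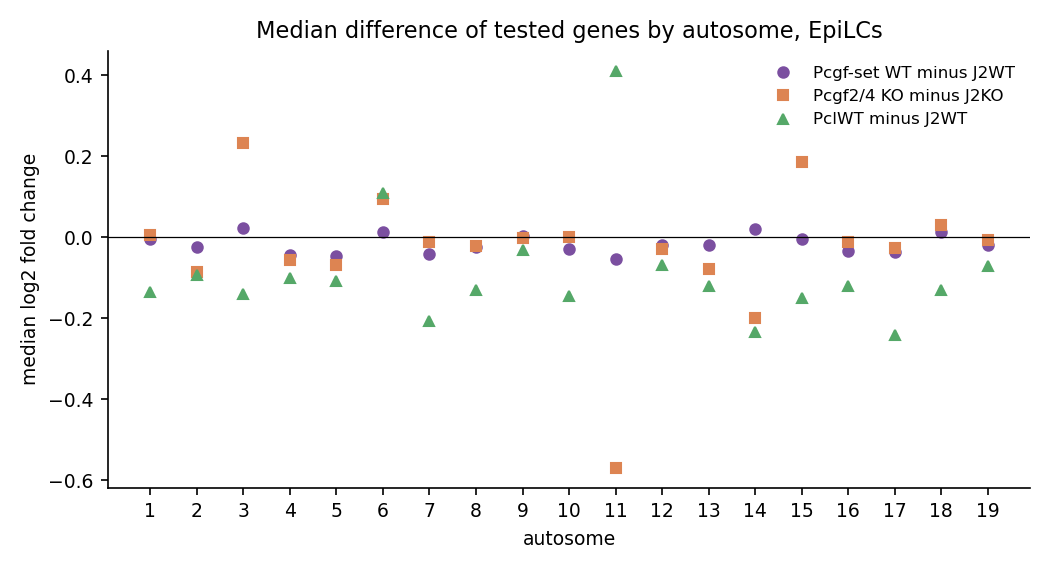
Each point is the median log2 fold change over the tested genes of 1 autosome in EpiLCs, for Pcgf-set WT minus J2WT (circles), Pcgf2/4 KO minus J2KO (squares) and PclWT minus J2WT (triangles). The circles stay between −0.053 and 0.023, while on chromosome 11 the square is at −0.570 and the triangle at 0.412.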

How the data were processed

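Processed RNA-seq files of 36 libraries were used, 6 of them for the main comparison. The authors prepared poly(A) libraries with a NEBNext kit that does not mark strand, used STAR to align to GRCm38 and to count reads, and the deposited values are raw counts for each gene. The labels' processing notes also list FastQC, DESeq2 and deepTools. The column without strand was used, which mixes reads of antisense or overlapping genes. Values of near-identical gene copies are uncertain too. In the 6 libraries 25.83% to 26.48% of reads were not assigned to a gene. Symbols, positions and exon lengths came from GENCODE for GRCm38, with a symbol for 55141 of 55401 genes.

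Levels are CPM with TMM over 36 libraries, and levels between genes are per exon length (RPKM). Tests used the quasi-likelihood fit of edgeR 4.0.16 in R 4.3.3, with TMM, where normalized counts averaged 15 or more over the libraries fitted. P-values were adjusted over all 13298 genes tested (autosomal or not), and autosomes 1 to 19 were counted. Calls needed an adjusted p below 0.05 with more than 2-fold difference (log2 over 1). A gene was bounded within 2-fold where its 95% interval, from the standard error derived from the F statistic, lay between −1 and 1. The study's methods used DESeq2 at these thresholds; it was run as an alternative (DESeq2 1.42.0, limma 3.58.1). Intervals cover the spread of 3 libraries a group, and precision is lowest for genes near the count minimum. On simulated counts of 12778 genes for the main comparison, edgeR called 100% of 100 genes changed by 1.5 on the log2 scale. It called 0 genes changed by 0.5 and 0 unchanged genes, and 94.8% of intervals held the true value. The 2-fold limit itself keeps most unchanged genes from being called. Changes near that limit, where the calls sat, were not simulated, so their calling was not tested. Figures were drawn with Python 3.11.15.

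Each library's group came from its title. Libraries of a group differed by more than sampling noise (chi-square per degree of freedom of at least 1.73 between the 6 libraries' replicate pairs), so none was merged with another. Genes named are list members (those called with the largest difference, then those with the highest RPKM), the 15 called genes with the largest difference in each direction with at least 1 CPM in the higher group, no overlap and a proper gene name, and the 10 called protein-coding genes with the highest RPKM. Textbook markers of each cell state, genes under the count minimum that define other cell types, and the further list members Atf4, Dnmt3a, Dnmt3l, Dusp6, Ezh2, Fgfr1, Gapdh, H19, Hspa8, Hspb1, Hsph1, Lamb1, Lamc1, Ldha, Lefty2, Meg3, Nodal, Pcgf2, Rian, Slc2a1, Tbx3, Trim71 and Zfp42 were added after their values were seen. The members and lists were chosen with earlier results of these data known. Alternatives covered scaling, count filters, tools, offsets for GC content and length, thinned depth, other gene sets, the replicate block and each library left out. ESC libraries other than J2WT and PclWT, the TKO and QKO libraries, and ChIP-seq were not used here. A few items, among them 1 row of the plot of the largest differences, are not reported here.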

Additional observations from a re-analysis of the deposited data

How the results depend on the processing

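The 373 calls between the WT sets ranged from 296 (protein-coding genes only) to 559 (filterByExpr) under other scalings, tools, gene sets, GC and length offsets, thinned depth and the filter filterByExpr, with 2 exceptions. Without a count filter 917 genes were called (464 higher, 453 lower), and a test against 2-fold (glmTreat) left 52 (22 higher, 30 lower). Scalings moved the median of all genes by at most 0.025. Leaving out each library in turn gave 355 to 427 calls and 11330 to 11399 genes within 2-fold, against 11575. DESeq2 called 386 genes, 366 of them among the 373, and gave 11040 genes within 2-fold. The same numbers did not pair the libraries (correlations of deviations −0.0108, 0.0425 and 0.0153), and the replicate block gave 370 calls and 11606 genes within 2-fold. Together with the GC and length offsets, the replicate block gave 381.

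For the other comparisons, glmTreat left 1226 calls between Pcgf2/4 KO and J2KO, 1587 between PclWT and J2WT, 1270 between PclWT and Pcgf-set WT, 780 between PclWT EpiLCs and ESCs, 507 between J2KO and J2WT and 224 between Pcgf2/4 KO and Pcgf-set WT. Without a count filter 3940 genes were called between Pcgf2/4 KO and J2KO, 3958 between PclWT and Pcgf-set WT, 2106 between J2KO and J2WT and 1364 between Pcgf2/4 KO and Pcgf-set WT. A test against 2-fold asks for more than a difference from 0, and a lower filter admits weakly counted genes. PclWT EpiLC and ESC numbers paired (correlations 0.485, 0.268 and 0.231), and the replicate block gave 1892 calls against 1857. Scaling by library size alone moved the median of all genes by 0.268 between PclWT and J2WT and by 0.163 between PclWT and Pcgf-set WT, where 68.4% and 66.7% of calls were then higher in PclWT, against 50.7% and 55%.

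Of 64 called genes named, none changed direction under any alternative in which it was tested. Thinning to the smallest library left 55 of them tested, protein-coding genes only 62, and leaving a library out 61 to 64. Over all named genes, called or not, 103 pairs of gene and alternative lost an adjusted p under 0.05. A further 28 gained it and 1990 stayed the same, the test against 2-fold included. With GC and length offsets Foxd3, Vldlr and Zfp119a fell to 2-fold or less, with all 21 EpiLC libraries in the fit Egln3, Mael and Vldlr, and with a library left out 1 to 4 genes, among Mael, Vldlr, Egln3, Kcnq1ot1, Hand1 and Zfp119a. Depth limits genes near 15 counts, where 10% of the lowest of 5 bins by CPM was called.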

Other observations

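Zinc finger genes named Zfp, many of them KRAB repressors of transposons, held 4 calls among 338 tested, all lower in Pcgf-set WT (1.18%, near the 1.38% called lower over all genes). Zfp936, Zfp628 and Zfp977 on chromosome 7 and Zfp119a on chromosome 17 were the 4 (log2 −1.30, −1.24 and −1.09 for the first 3, and 1.41 against 2.83 CPM for Zfp119a, which several other fits put at 2-fold or less), and Zfp936 was at 12.3, 11.8 and 13 CPM in Pcgf-set WT against 31.9, 30.7 and 29.1 CPM in J2WT. Over the list 123 genes were lower and 53 higher at an adjusted p under 0.05 of any size, beside 30.1% and 24.7% over all genes, with a median of −0.10. Between Pcgf2/4 KO and J2KO the median was −0.20. Ribosomal protein genes differed little, with 0 of 77 called, all 77 within 2-fold and a median of −0.06.

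Interferon and MHC class I genes held 0 calls among 16 tested, with a median of 0.24. At an adjusted p under 0.05 of any size 8 were higher and 1 lower, beside 24.7% and 30.1% of all genes. Bst2, an antiviral membrane protein, was at 156 CPM in Pcgf-set WT and 115 CPM in J2WT. Of 11 retinoid genes Stra6, a receptor for retinol uptake, was called higher, at 13.8, 15.9 and 15.8 CPM against 5.91, 5.83 and 6.58 CPM (log2 1.32 ± 0.11). Of 11 immediate early genes Atf3 was called. These 1 of 11 calls are 9.09% of each list, beside 2.92% over all genes. Oncofetal genes of the Lin28, Hmga and Igf2bp families held 0 calls among 8, with Lin28a at 429 CPM in Pcgf-set WT and 530 CPM in J2WT. Of the Hox genes 2 reached the count minimum and 0 were called, as was the case for 2 clustered protocadherins and 3 histone genes.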
